A study of Homo sapiens with 12 samples.

Results

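The hypoxia and glycolysis genes are 41 genes of the table, chosen by symbol: the hypoxia-inducible factors (HIFs) and their regulators, targets of HIF, glucose and lactate transporters, glycolytic enzymes, and PDK1. They were 41 of 56634 symbols in the deposited counts. Of them, 40 passed the filter on low counts and were among the 13084 genes tested. CA9, a carbonic anhydrase and a widely used marker of HIF activity, did not pass, with 13 counts over all 12 libraries.

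The cells were HCT116, an established human colorectal carcinoma line grown in high-glucose medium. Their RNA was sequenced in 4 groups of 3 biological replicates, to ask how inhibition of the Mediator kinases alters transcription with and without the cytokine TNF-alpha (TNF). In the TNF plus Senexin B group, 1 hour with 1 µM Senexin B preceded 2 hours with 10 ng/mL TNF. In the TNF group the first hour was with the vehicle, 0.1% DMSO, and the TNF treatment was the same. The Senexin B group had the inhibitor but no TNF over 3 hours, and the control group had only DMSO over that time. Senexin B inhibits CDK8 and CDK19, kinases that bind the Mediator complex at promoters, and TNF activates the transcription factor NF-kB. No group was a hypoxic treatment, and the oxygen level in culture is not given in the sources used here.

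When oxygen is plentiful, EGLN prolyl hydroxylases mark the HIF alpha proteins, and VHL directs the marked protein to degradation. At low oxygen the alpha subunit pairs with ARNT, binds DNA at a short core, and raises the transcription of genes for glucose uptake, glycolysis and blood vessel growth. Many tumour lines express the glycolytic enzymes at high levels in normal oxygen as well, and HIF1A is also a known NF-kB target.

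Over the 12 libraries, total counts were from 5835226 to 9281176, and the biological coefficient of variation of the fit was 3.62%. The NF-kB targets NFKBIA, TNFAIP3 and CXCL8 rose with TNF, by log2 fold changes from 3.54 to 7.15. EGR1 and JUN fell with Senexin B, by log2 fold changes of -1.45 and -1.33, so both treatments left a mark in the libraries that carry their labels. Of 8 epithelial markers, 7 passed the filter. COL1A1 alone of 6 fibroblast markers passed, and none of 6 blood cell markers or 4 endothelial markers did, with at most 4 and 13 summed counts per library. TNF replicate 1, the shallowest library, differed from the others in base composition: across 12188 genes its deviation from the group mean had a Spearman correlation of -0.522 with transcript GC content, against 0.37 and 0.32 in TNF replicates 2 and 3. These are bulk libraries, so fewer cells of a type and less RNA per cell cannot be told apart.

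The DNA core that HIF binds is ACGTG or GCGTG. Promoter windows from RefSeq (GRCh38.p14), from 250 bases before to 50 bases after an annotated start, were found for 36 of the 41 genes. At least 1 window held a core on either strand for 32 of these 36 genes (88.9%), against 52.4% of all 27305 genes with a window. Counted by window, the share was 66.7% of 66 windows of these genes, against 48.4% of all 35116. Matches may overlap, since CACGTG holds ACGTG on both strands. The core was present in all 7 genes with a window that changed in at least 1 comparison below, and in 25 of the 29 that changed in none (86.2%). The windows of 5 genes follow, each on the gene's own strand with every core in capitals. ADM (chr11:10304823-10305122, plus strand), SLC2A1 (chr1:42958819-42959118, minus strand) and HK2 (chr2:74834920-74835219, plus strand) are shown because these genes fell with TNF. LDHA (chr11:18394313-18394612, plus strand) and PGK1 (chrX:78103998-78104297, plus strand) are textbook HIF targets that were called in no comparison. For HK2 and LDHA, which have several starts, the window with most matches is given.
ADM: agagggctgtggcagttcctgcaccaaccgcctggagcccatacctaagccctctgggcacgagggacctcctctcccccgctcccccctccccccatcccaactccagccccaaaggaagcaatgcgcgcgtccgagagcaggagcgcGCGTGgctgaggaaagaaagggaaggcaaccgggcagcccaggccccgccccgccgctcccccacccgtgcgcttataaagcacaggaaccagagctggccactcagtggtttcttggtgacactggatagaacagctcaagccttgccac
SLC2A1: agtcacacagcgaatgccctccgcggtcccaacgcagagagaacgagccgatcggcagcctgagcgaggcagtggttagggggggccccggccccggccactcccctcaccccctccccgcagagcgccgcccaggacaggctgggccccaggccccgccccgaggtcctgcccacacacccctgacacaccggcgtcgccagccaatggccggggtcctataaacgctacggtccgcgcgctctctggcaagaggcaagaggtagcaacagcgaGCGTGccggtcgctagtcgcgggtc
HK2: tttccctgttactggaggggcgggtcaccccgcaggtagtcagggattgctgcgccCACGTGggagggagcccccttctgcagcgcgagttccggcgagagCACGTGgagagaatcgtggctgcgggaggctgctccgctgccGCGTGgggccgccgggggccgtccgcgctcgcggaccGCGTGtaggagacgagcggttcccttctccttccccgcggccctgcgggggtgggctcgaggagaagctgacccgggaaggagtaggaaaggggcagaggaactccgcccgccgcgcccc
LDHA: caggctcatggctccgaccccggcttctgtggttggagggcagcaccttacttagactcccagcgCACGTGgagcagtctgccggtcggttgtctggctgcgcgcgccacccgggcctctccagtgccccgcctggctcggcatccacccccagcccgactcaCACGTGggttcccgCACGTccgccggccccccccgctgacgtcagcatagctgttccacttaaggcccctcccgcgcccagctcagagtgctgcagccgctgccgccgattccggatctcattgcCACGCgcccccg
PGK1: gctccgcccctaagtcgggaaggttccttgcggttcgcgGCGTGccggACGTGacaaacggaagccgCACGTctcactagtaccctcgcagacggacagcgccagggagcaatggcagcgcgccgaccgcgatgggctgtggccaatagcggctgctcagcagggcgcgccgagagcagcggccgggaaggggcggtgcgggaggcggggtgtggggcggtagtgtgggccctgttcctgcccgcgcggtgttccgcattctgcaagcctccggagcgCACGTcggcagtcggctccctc
The ADM window has 1 match, 101 bases before the start. The SLC2A1 window has 1, which begins at base 26 of the transcript. HK2, which fell with TNF, and LDHA, which was called in no comparison, have 6 matches each, and PGK1 has 4. Whether the number of matches goes with the calls was not tested. A match describes the letters and is not evidence that a factor was bound.

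Levels differed far more between genes than between groups. Per kb of principal transcript, the mean CPM (counts scaled by library size) over 12 libraries ran from 0.0808 for CA9 to 1825 for GAPDH, which makes 1,3-bisphosphoglycerate. The enzymes GAPDH, ENO1, LDHB, PKM, TPI1, ALDOA and LDHA were the 7 highest, from 608 CPM per kb for LDHA upward. HIF1A, the main oxygen-sensitive subunit, averaged 57.8 CPM per kb and EPAS1, the alpha subunit of HIF-2, averaged 7.04. HIF1A thus made up 89.1% of the 2 alpha transcripts. Within families, ALDOA made up 99.2% of the aldolase pair, ENO1 98.8% of the enolase pair and SLC2A1 96.4% of the pair with SLC2A3. The LDHB share of the lactate dehydrogenase pair was 62.8%. The order of HK1 and HK2 rests on the length used: HK2 was 44.6% of the pair by principal transcripts and 57.3% by all annotated exon bases. The 41 genes took from 1.79% to 1.95% of all counts in a library, and the 17 enzymes from 1.63% to 1.78%.

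**Figure D1:**
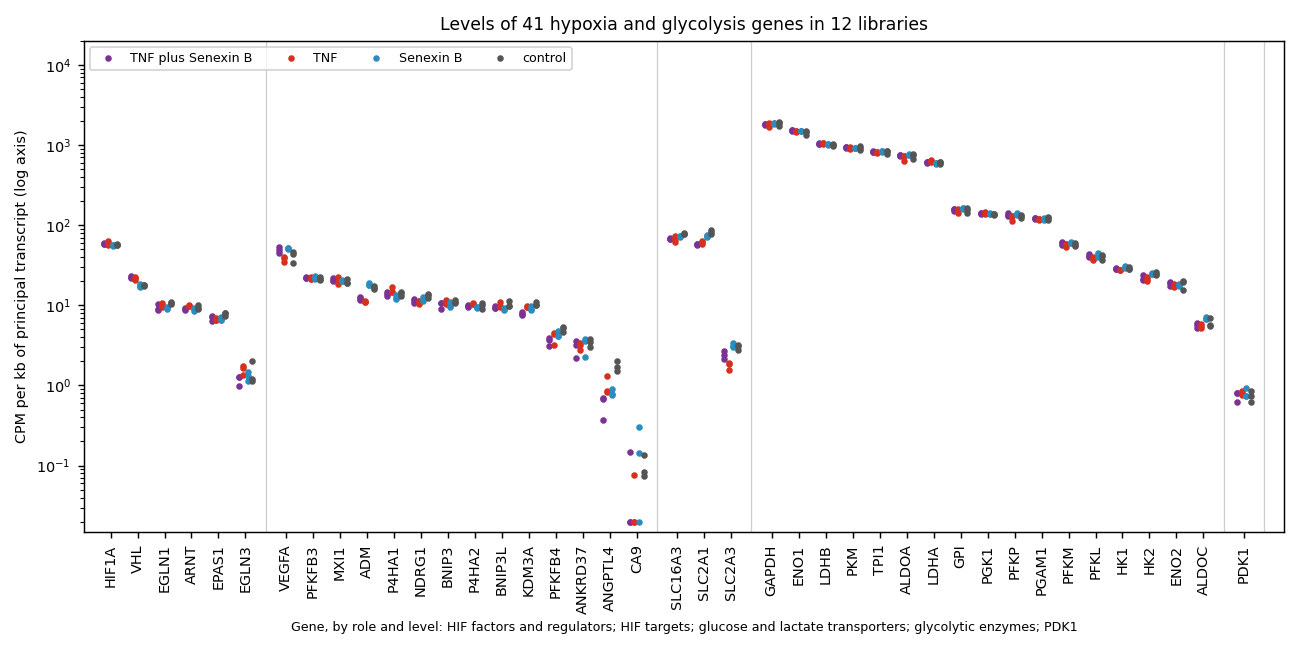
Levels of the 41 genes in CPM per kb of principal transcript (log axis), 1 point per library, with genes ordered by role and level and colours for the 4 groups. The 7 enzymes from GAPDH to LDHA have means of 608 CPM per kb or more, CA9 lies lowest (libraries with 0 counts are drawn at 0.02), and the points of a gene mostly sit close together.

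TNF alone lowered 7 of the 40 tested genes and raised 1, at an adjusted p under 0.05 in the quasi-likelihood test of edgeR, Benjamini-Hochberg adjusted over all 13084 genes. That is 20% of them, where 10.0% of all tested genes were called (5.81% higher and 4.20% lower). The median log2 fold change of the 40 was -0.04, beside -0.01 over all tested genes. Without regard to sign the median size was 0.076, beside 0.108, and 40% were over 0.1, beside 52.7%. The median SE was 0.061, beside 0.091, so the larger share of calls does not mean larger typical changes. The 7 that fell were the glucose transporters SLC2A1 and SLC2A3, the lactate exporter SLC16A3, the first glycolytic enzyme HK2, the vasodilator peptide gene ADM, the stress gene NDRG1, and PFKFB4, whose product sets the level of an activator of phosphofructokinase. The 1 that rose was VHL.

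Among the factors and regulators, VHL rose, the substrate receptor of the ligase that removes HIF alpha proteins. It stood at 81.8, 84.0 and 77.1 CPM in TNF libraries, against 64.7, 66.1 and 67.5 CPM in control libraries. All TNF libraries were higher than all control libraries. The log2 fold change was 0.29 ± 0.06 (SE, adjusted p = 0.000264, edgeR), a 1.22-fold increase. VHL lies at chr3:10141008-10152220 on the plus strand.

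HIF1A stood at 248.7, 233.6 and 221.7 CPM in TNF libraries, against 225.6, 219.1 and 218.7 CPM in control libraries, and the groups overlapped. Its log2 fold change was 0.08 with a 95% interval from -0.004 to 0.17 (adjusted p = 0.246, edgeR). EPAS1 had 34.0, 34.1 and 35.5 CPM in TNF libraries, against 41.8, 41.4 and 37.9 CPM in control libraries. The groups did not overlap, and the log2 fold change of -0.22 ± 0.08 missed the threshold (adjusted p = 0.0638, edgeR). ARNT, EGLN1 and EGLN3 were not called, and EGLN3 was measured on 23 to 49 counts a library.

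Both glucose transporters fell. SLC2A1 encodes GLUT1, the main route of glucose into many tumour cells, and stood at 213.1, 224.0 and 233.1 CPM in TNF libraries, against 283.1, 300.5 and 319.9 CPM in control libraries. The highest TNF library was below the lowest control library, and the log2 fold change was -0.43 ± 0.04 (adjusted p = 1.8e-11, edgeR). SLC2A3, which encodes GLUT3, had 7.46, 6.13 and 7.33 CPM in TNF libraries, against 10.8, 12.3 and 12.6 CPM in control libraries. This was the largest fall among the called genes of the comparison, to 0.58 of control, with a log2 fold change of -0.79 ± 0.15 (adjusted p = 5.54e-05, edgeR). Both calls held in all 20 alternative analyses. SLC2A3 rests on 43 to 60 counts per TNF library and 80 to 114 per control library.

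SLC16A3, which encodes the lactate exporter MCT4, had 297.4, 349.2 and 322.4 CPM in TNF libraries, against 379.2, 378.2 and 389.7 CPM in control libraries. Every TNF library was lower, with a log2 fold change of -0.24 ± 0.04 (adjusted p = 2.08e-05, edgeR). The lowest value belongs to TNF replicate 1, the library that stands apart in GC content. With offsets corrected for GC content the log2 fold change was -0.08 and the call was lost (adjusted p = 0.148, edgeR). SLC16A3 also shares 482 exon bases with CSNK1D on the other strand, and the kit does not mark strand.

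Among HIF targets, ADM fell. Its product, adrenomedullin, dilates blood vessels, and its RNA is strongly induced by hypoxia in many cells. It had 20.8, 20.9 and 21.3 CPM in TNF libraries, against 29.8, 31.2 and 32.7 CPM in control libraries. The 3 TNF values lay within 1 CPM of each other and all below control, with a log2 fold change of -0.58 ± 0.09 (adjusted p = 1.69e-06, edgeR).

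NDRG1, a gene induced by stress and hypoxia, had 43.0, 38.5 and 42.9 CPM in TNF libraries, against 50.7, 46.3 and 52.0 CPM in control libraries. The groups did not overlap, and its log2 fold change was -0.26 ± 0.07 (adjusted p = 0.0121, edgeR). The call was lost without TNF replicate 2 (adjusted p = 0.0962, edgeR), without control replicate 3 (adjusted p = 0.0977, edgeR) and in DESeq2 (adjusted p = 0.0578). PFKFB4 had 16.0, 15.6 and 11.5 CPM in TNF libraries, against 19.4, 18.7 and 16.6 CPM in control libraries. Its log2 fold change of -0.36 ± 0.12 was just past the threshold (adjusted p = 0.0433, edgeR) and rests largely on TNF replicate 3. Without that library it was -0.21 (adjusted p = 0.356, edgeR), and it was lost in 10 of 20 alternatives in all. Leaving out control replicate 1, control replicate 2 or Senexin B replicate 2 gave adjusted p = 0.134, 0.121 and 0.0501 (edgeR).

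ANGPTL4, which encodes a secreted inhibitor of lipoprotein lipase, was low, with 9, 20 and 13 counts in TNF libraries, against 21, 32 and 29 counts in control libraries. That is 1.56, 2.45 and 1.59 CPM with TNF, against 2.83, 3.80 and 3.20 CPM in control. All TNF values were lower, but the log2 fold change of -0.79 ± 0.29 missed the threshold (adjusted p = 0.0582, edgeR). It was past it without TNF replicate 2 (-1.06, adjusted p = 0.0325, edgeR). VEGFA, which encodes the blood vessel growth factor, had 48.0, 47.1 and 41.9 CPM in TNF libraries, against 40.6, 55.1 and 52.5 CPM in control libraries. Control replicate 1 lay below every TNF library, so the groups overlapped, and the log2 fold change was -0.13 ± 0.08 (adjusted p = 0.381, edgeR). Without that library it was -0.24 (adjusted p = 0.0387, edgeR). The other targets tested, BNIP3, BNIP3L, KDM3A, P4HA1, P4HA2, PFKFB3, ANKRD37 and MXI1, were not called. With ANGPTL4 and VEGFA, the log2 fold changes of these 10 ran from -0.79 to 0.12.

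The enzymes stayed near their control levels. Of 17 glycolytic enzymes 1 was called (5.88%, beside 10.0% of all tested genes), with a median log2 fold change of -0.04. The 95% interval lay within 0.2 of 0 on the log2 scale for 14 of the 17, and within 0.1 for 2. The log2 fold changes of the 16 not called ran from -0.13 to 0.07. Among these, ALDOA was called when control replicate 1 was left out (edgeR). The called enzyme was HK2, the hexokinase form that HIF induces. It had 115.8, 123.1 and 130.8 CPM in TNF libraries, against 151.1, 136.4 and 140.9 CPM in control libraries. TNF libraries were all lower, with a log2 fold change of -0.21 ± 0.05 (adjusted p = 0.00575, edgeR). Without control replicate 1, its highest library, the change was -0.16 and the call was lost (adjusted p = 0.0558, edgeR). The HK2 call was also lost without control replicate 1 and TNF replicate 1 together (adjusted p = 0.153, edgeR). GAPDH had 3178.7, 3501.8 and 3452.2 CPM in TNF libraries, against 3217.1, 3527.7 and 3639.7 CPM in control libraries, with an interval from -0.11 to 0.04. Replicate 1 was lowest in both groups, and also in the TNF plus Senexin B and Senexin B groups (3335.0 and 3388.5 CPM). PDK1, which restrains the entry of pyruvate into mitochondria, had 12.0, 10.9 and 11.6 CPM in TNF libraries, against 10.5, 12.0 and 8.95 CPM in control libraries, and was not called. Its interval was wide, from -0.15 to 0.41.

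**Figure D2:**
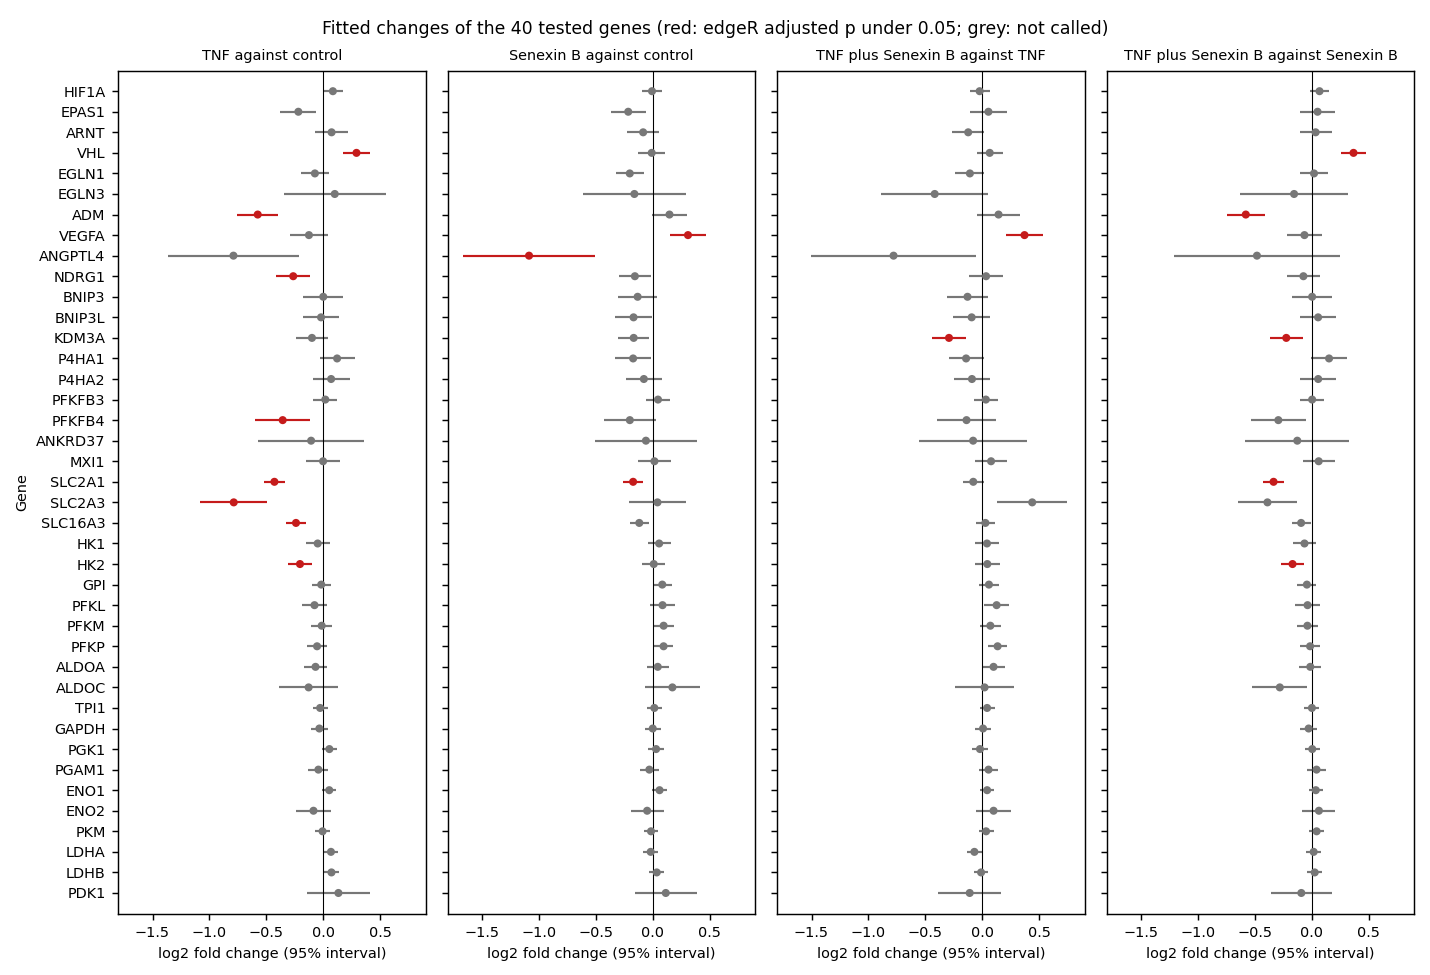
Log2 fold changes (points) and 95% intervals (bars) of the 40 tested genes in 4 comparisons, genes by role down the page, red where edgeR's adjusted p is under 0.05. VHL lies right of 0 and ADM and SLC2A1 lie left of 0 in both TNF comparisons, VEGFA lies right of 0 in both Senexin B comparisons, and the bars of the enzymes from GPI to LDHB are short and near 0 except for ALDOC and ENO2.

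The same TNF treatment was also compared within cells that held the inhibitor, from 6 other libraries. With TNF plus Senexin B against Senexin B, 5 of the 40 genes were called (12.5%, beside 5.95% of all tested genes), 1 higher and 4 lower (beside 4.27% and 1.68%). The median size of change was 0.058, beside 0.082 over all tested genes, and the median SE was 0.060, beside 0.088. VHL rose again and ADM, SLC2A1 and HK2 fell again, and these 4 were called in both TNF comparisons. KDM3A, which encodes a histone demethylase induced by HIF, was the fifth.

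VHL had 83.2, 82.9 and 87.7 CPM in TNF plus Senexin B libraries, against 65.0, 68.3 and 63.9 CPM in Senexin B libraries. The groups were well apart, with a log2 fold change of 0.37 ± 0.06 (adjusted p = 1.86e-06, edgeR). ADM had 21.8, 24.2 and 23.4 CPM in TNF plus Senexin B libraries, against 34.0, 36.1 and 33.9 CPM in Senexin B libraries. All TNF plus Senexin B libraries were lower, with a log2 fold change of -0.58 ± 0.08 (adjusted p = 2.44e-07, edgeR), the same size as without the inhibitor. SLC2A1 had 210.2, 214.1 and 210.8 CPM in TNF plus Senexin B libraries, against 257.6, 275.1 and 269.2 CPM in Senexin B libraries. The 3 treated libraries were closely grouped below the others, and the log2 fold change was -0.34 ± 0.04 (adjusted p = 2.67e-08, edgeR). These 3 calls held in all 20 alternatives in both TNF comparisons.

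HK2 had 136.9, 121.1 and 124.4 CPM in TNF plus Senexin B libraries, against 140.1, 147.2 and 142.9 CPM in Senexin B libraries. The groups did not overlap, with a log2 fold change of -0.17 ± 0.05 (adjusted p = 0.0338, edgeR). KDM3A had 37.6, 37.9 and 40.5 CPM in TNF plus Senexin B libraries, against 42.8, 44.6 and 47.9 CPM in Senexin B libraries, with a log2 fold change of -0.22 ± 0.07 (adjusted p = 0.0461, edgeR). Both of these calls are near the threshold. HK2 was lost without any 1 of 5 libraries of the comparison (all but TNF plus Senexin B replicate 1), with adjusted p from 0.062 to 0.288 (edgeR). KDM3A was lost without any 1 of 5 libraries of the comparison (all but Senexin B replicate 1) and, by a small margin, without control replicate 2 or TNF replicate 3, with adjusted p from 0.0504 to 0.317 (edgeR).

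HIF1A had 227.0, 235.0 and 228.9 CPM in TNF plus Senexin B libraries, against 217.0, 219.1 and 223.4 CPM in Senexin B libraries. The groups did not overlap, and the log2 fold change of 0.07 had an interval from -0.02 to 0.15 (adjusted p = 0.528, edgeR). EPAS1 had 37.5, 37.3 and 33.0 CPM in TNF plus Senexin B libraries, against 33.9, 36.5 and 33.8 CPM in Senexin B libraries, which overlapped. NDRG1 had 44.5, 40.3 and 42.1 CPM in TNF plus Senexin B libraries, against 44.5, 47.1 and 42.2 CPM in Senexin B libraries, and was not called (adjusted p = 0.734, edgeR). PFKFB4 had 13.3, 11.3 and 14.1 CPM in TNF plus Senexin B libraries, against 15, 15 and 17.2 CPM in Senexin B libraries. All its TNF plus Senexin B libraries were lower, and the log2 fold change of -0.29 ± 0.12 missed the threshold (adjusted p = 0.179, edgeR).

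SLC2A3 had 9.28, 10.5 and 8.42 CPM in TNF plus Senexin B libraries, against 11.7, 13.1 and 12.1 CPM in Senexin B libraries. Every treated library was lower, and the log2 fold change of -0.39 ± 0.13 missed the threshold (adjusted p = 0.0607, edgeR). It was past it without TNF replicate 1 (adjusted p = 0.0472, edgeR) or without TNF plus Senexin B replicate 2 (adjusted p = 0.0471, edgeR). SLC16A3 had 337.6, 326.8 and 324.9 CPM in TNF plus Senexin B libraries, against 353.7, 358.8 and 343.9 CPM in Senexin B libraries, and was not called. ANGPTL4, at 11, 6 and 11 counts in TNF plus Senexin B libraries, against 12, 12 and 16 counts in Senexin B libraries, had a log2 fold change of -0.48 with an interval from -1.21 to 0.25 (adjusted p = 0.607, edgeR). Of the 17 enzymes HK2 alone was called, and the interval lay within 0.2 of 0 for 14 of them and within 0.1 for 5. The lowest of the other 16 was ALDOC, a low-level aldolase, at -0.28, and the highest was at 0.06. GAPDH had 3335.0, 3412.4 and 3427.3 CPM in TNF plus Senexin B libraries, against 3388.5, 3506.8 and 3480.7 CPM in Senexin B libraries. PDK1 had 11.3, 8.94 and 11.5 CPM in TNF plus Senexin B libraries, against 10.5, 13.1 and 10.4 CPM in Senexin B libraries. Both genes overlapped between the groups and neither was called.

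Whether Senexin B altered the TNF effect was tested directly as the interaction. None of the 40 genes was called (beside 0.0459% of all tested genes, 6 of 13084, and 0.0229% in each direction). At an unadjusted p under 0.05 there were 3 in edgeR, SLC16A3, EPAS1 and SLC2A3, beside 796 of all 13084 tested genes. DESeq2 called 0 of the 40, with 1 at an unadjusted p under 0.05. For ADM the interaction was -0.004 on the log2 scale, with an interval from -0.25 to 0.24, and for SLC2A1 it was 0.09, from -0.03 to 0.22. For SLC2A3 it was 0.40, from 0.003 to 0.79, with an adjusted p of 0.805 (edgeR). Over the 40 genes the TNF effects with and without inhibitor, which share no library, had a Pearson correlation of 0.842 and a Spearman correlation of 0.656, beside 0.672 and 0.39 over all 13084 genes. The sign was the same for 29 of 40 genes (72.5%), beside 64.9% of all tested genes. These correlations run across genes, which are not independent replicates, and both effects come from 1 fit.

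Senexin B alone changed 3 of the 40 genes (7.5%, beside 3.04% of all tested genes). VEGFA rose (1.53% of all genes rose) and ANGPTL4 and SLC2A1 fell (1.51% fell). The median log2 fold change of the 40 was -0.01, beside -0.0004 over all tested genes. Their median size of change was 0.084, beside 0.085, and the median SE was 0.060, beside 0.088. The epithelial keratins KRT8 and KRT18, 2 of 7 tested epithelial markers, rose with Senexin B alone by 0.14 ± 0.03 and 0.14 ± 0.04 on the log2 scale and with Senexin B in TNF-treated cells by 0.17 ± 0.03 and 0.14 ± 0.04. The other 5 (EPCAM, CDH1, KRT19, CDX2 and CLDN7) were not called in either comparison, with log2 fold changes from -0.14 to 0.02 with Senexin B alone and from -0.03 to 0.16 in TNF-treated cells. The median of the 7 was -0.05 and 0.05. KRT8 had the highest level of the 8 in every group, and VIL1 had 0 counts in all libraries. The summed level of the 8 epithelial markers was 4594 to 4639 CPM in TNF plus Senexin B libraries, against 3974 to 4436 CPM in TNF libraries, and 4708 to 4795 CPM in Senexin B libraries, against 4279 to 4612 CPM in control libraries. Its part in the results on Senexin B was not tested.

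VEGFA had 62.7, 59.6 and 62.1 CPM in Senexin B libraries, against 40.6, 55.1 and 52.5 CPM in control libraries. All Senexin B libraries were higher, by 0.31 ± 0.08 on the log2 scale (adjusted p = 0.0134, edgeR). Control replicate 1 was well below its group. Without it the log2 fold change was 0.19 and the call was lost (adjusted p = 0.2, edgeR), as it was without Senexin B replicate 1 (adjusted p = 0.0903, edgeR) or replicate 3 (adjusted p = 0.0806, edgeR).

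ANGPTL4 had 12, 12 and 16 counts in Senexin B libraries, against 21, 32 and 29 counts in control libraries. In CPM these are 1.41, 1.49 and 1.71 with Senexin B, against 2.83, 3.80 and 3.20 in control. The groups were apart, at 0.47 of control, with a log2 fold change of -1.09 ± 0.29 and an interval from -1.67 to -0.51 (adjusted p = 0.0139, edgeR). The call rests on few counts: it was lost without Senexin B replicate 1, Senexin B replicate 2 or control replicate 2 (adjusted p = 0.0822, 0.0639 and 0.0957, edgeR), and DESeq2 gave it no adjusted p.

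SLC2A1 had 257.6, 275.1 and 269.2 CPM in Senexin B libraries, against 283.1, 300.5 and 319.9 CPM in control libraries. The highest Senexin B library was below the lowest control library, and the log2 fold change was -0.17 ± 0.04 (adjusted p = 0.0104, edgeR). Without Senexin B replicate 1 it was -0.15 (adjusted p = 0.111, edgeR) and without control replicate 3 it was -0.13 (adjusted p = 0.163, edgeR). SLC2A3 had 11.7, 13.1 and 12.1 CPM in Senexin B libraries, against 10.8, 12.3 and 12.6 CPM in control libraries, which overlapped. SLC16A3 had 353.7, 358.8 and 343.9 CPM in Senexin B libraries, against 379.2, 378.2 and 389.7 CPM in control libraries. Every Senexin B library was lower, and the log2 fold change of -0.12 missed the threshold (adjusted p = 0.11, edgeR). It was past the threshold in 4 of 20 alternatives. ADM had 34.0, 36.1 and 33.9 CPM in Senexin B libraries, against 29.8, 31.2 and 32.7 CPM in control libraries. Its groups did not overlap, and its log2 fold change of 0.15 had an interval from -0.01 to 0.30 (adjusted p = 0.401, edgeR).

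KDM3A had 42.8, 44.6 and 47.9 CPM in Senexin B libraries, against 49.1 to 53.6 CPM in control libraries. All Senexin B libraries were lower, and the log2 fold change of -0.17 ± 0.07 missed the threshold (adjusted p = 0.209, edgeR).

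Among the regulators none was called with Senexin B alone. EGLN1, a prolyl hydroxylase of HIF alpha proteins, had 65.0, 66.8 and 64.0 CPM in Senexin B libraries, against 75.6, 77.1 and 72.7 CPM in control libraries. All Senexin B libraries were lower, with a log2 fold change of -0.20 ± 0.06 just outside the threshold (adjusted p = 0.0558, edgeR). Leaving out TNF replicate 1, TNF replicate 2 or TNF plus Senexin B replicate 2 put it past the threshold, and so did 4 further alternatives, the replicate block among them. EPAS1 had 33.9, 36.5 and 33.8 CPM in Senexin B libraries, against 41.8, 41.4 and 37.9 CPM in control libraries, with a log2 fold change of -0.22 ± 0.08 (adjusted p = 0.119, edgeR). It was past the threshold with the replicate block and GC-corrected offsets together (adjusted p = 0.0404, edgeR). HIF1A had an interval from -0.09 to 0.08 and VHL from -0.13 to 0.11. No enzyme was called, the log2 fold changes ran from -0.05 to 0.17, and the median log2 fold change of the 17 was 0.03. The interval lay within 0.2 of 0 for 16 of them, all but ALDOC, and within 0.1 for 6.

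In TNF-treated cells the inhibitor was compared in TNF plus Senexin B against TNF. Here 2 of the 40 genes were called (5%, beside 5.45% of all tested genes), VEGFA higher and KDM3A lower (beside 2.90% and 2.55%). VEGFA had 54.4, 58.7 and 63.2 CPM in TNF plus Senexin B libraries, against 48.0, 47.1 and 41.9 CPM in TNF libraries. All TNF plus Senexin B libraries were higher, with a log2 fold change of 0.37 ± 0.08 (adjusted p = 0.00254, edgeR), a 1.29-fold increase. KDM3A had 37.6, 37.9 and 40.5 CPM in TNF plus Senexin B libraries, against 47.7, 47.3 and 47.1 CPM in TNF libraries. The TNF libraries were closely grouped above the others, and the log2 fold change was -0.29 ± 0.07 (adjusted p = 0.00745, edgeR). Both calls held in all 20 alternatives.

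SLC2A1 had 210.2, 214.1 and 210.8 CPM in TNF plus Senexin B libraries, against 213.1, 224.0 and 233.1 CPM in TNF libraries, with a log2 fold change of -0.08 and an interval from -0.17 to 0.01 (adjusted p = 0.344, edgeR). With GC-corrected offsets it was -0.12 and past the threshold (adjusted p = 0.0477, edgeR), as it was with the replicate block and those offsets together (adjusted p = 0.0267, edgeR). SLC2A3 had 9.28, 10.5 and 8.42 CPM in TNF plus Senexin B libraries, against 7.46, 6.13 and 7.33 CPM in TNF libraries. These groups did not overlap, and the log2 fold change of 0.44 ± 0.15 missed the threshold (adjusted p = 0.0795, edgeR). ADM, at 21.8, 24.2 and 23.4 CPM in TNF plus Senexin B libraries, against 20.8, 20.9 and 21.3 CPM in TNF libraries, had an interval from -0.05 to 0.33. ANGPTL4 had 11, 6 and 11 counts in TNF plus Senexin B libraries, against 9, 20 and 13 counts in TNF libraries, and its log2 fold change was -0.78 ± 0.36 (adjusted p = 0.205, edgeR). Of the 17 enzymes none was called, with a median log2 fold change of 0.04. The closest was PFKP, the platelet form of phosphofructokinase, at 374.4, 360.3 and 348.6 CPM in TNF plus Senexin B libraries, against 298.4, 345.0 and 341.3 CPM in TNF libraries. TNF replicate 1 was its lowest library, and the log2 fold change was 0.13 ± 0.04 (adjusted p = 0.0535, edgeR). It passed the threshold with the replicate block, with no filter on low counts, and without control replicate 1, TNF replicate 2 or TNF replicate 3.

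**Figure D3:**
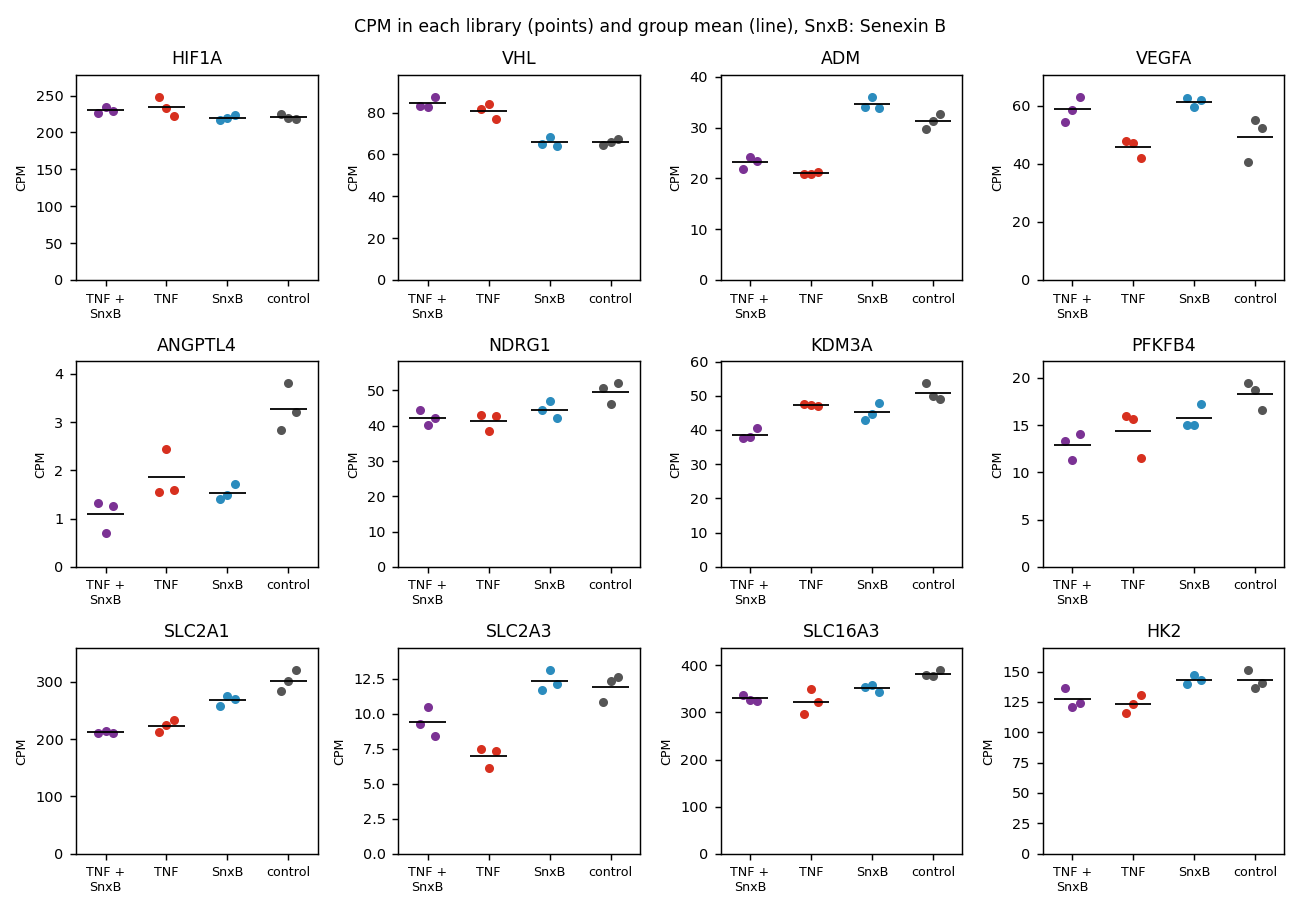
CPM in each library (points, 3 per group) and the group mean (line) for HIF1A and 11 genes called in at least 1 comparison, each on its own linear axis from 0. VHL is higher and ADM, SLC2A1 and HK2 are lower in the group means of both groups with TNF than of both without it, while the VEGFA mean is higher in both groups with Senexin B (SnxB) than in the TNF and control groups.

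The effects of Senexin B without and with TNF also come from different libraries. VEGFA was called in both and ANGPTL4, SLC2A1 and KDM3A in 1 of the 2 each. Over the 40 genes the effects had a Pearson correlation of 0.81 and a Spearman correlation of 0.648, beside 0.263 and 0.33 over all tested genes, and 29 of 40 had the same sign (72.5%, beside 64.1%). ANGPTL4 is the point farthest from 0 and was measured on few counts, and the correlations were not computed without it. The 40 genes were also measured more precisely than most, with a median SE of 0.06 in both comparisons, beside 0.09 over all tested genes.

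**Figure D4:**
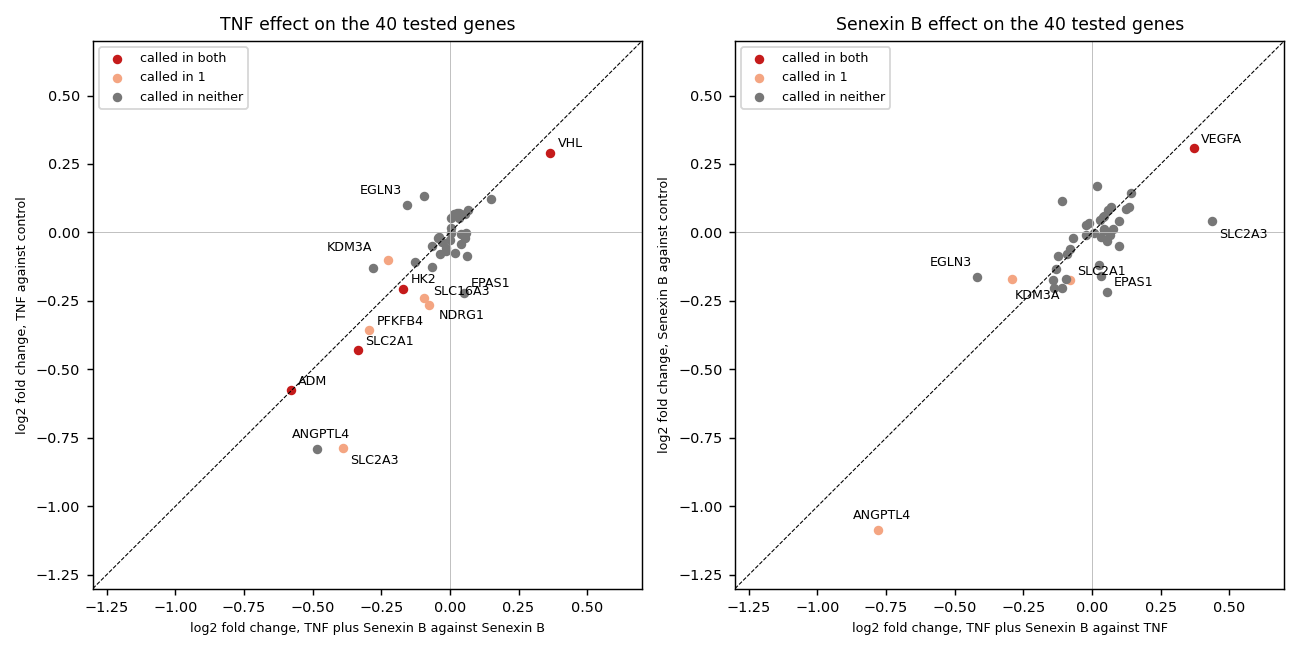
Log2 fold changes of the 40 tested genes for TNF (left, with Senexin B on the x axis and without it on the y axis) and for Senexin B (right, with TNF on the x axis and without it on the y axis), coloured by the number of these comparisons in which edgeR called the gene, with a dashed line of equal effects. VHL, ADM, SLC2A1 and HK2 are called on both axes at left and VEGFA at right, and SLC2A3 lies off the line in both panels.

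In all, 11 of the 41 genes were called in at least 1 comparison and 6 of them in more than 1. The same shares over all tested genes were not computed, so these 2 counts have no background beside them. The 29 tested genes called in none include HIF1A, ARNT and 16 of the 17 enzymes. Over all 12 libraries the coefficient of variation of CPM was 1.88% for PGK1, 2.26% for TPI1, 3.80% for GAPDH and 3.52% for ENO1, with a median of 3.80% over the enzymes. It was 15.4% for SLC2A1, 21.7% for ADM and 47.2% for ANGPTL4, and 2.87% for PFKFB3, a HIF target with the same kind of product as PFKFB4. The coefficient includes counting noise: ANGPTL4 had 6 to 32 counts a library. EGLN3, called in no comparison, had a coefficient of 21.1% on 23 to 49 counts. Pseudogene copies took few counts: 61 GAPDH pseudogene rows held 749 counts, against 337832 for GAPDH itself, and 6 LDHA rows held 686, against 144286. The highest share was for BNIP3, with 42 counts in 39 rows, 1.41% of its own 2980. How reads that map to several copies were counted is not given in the sources used here. The levels of these genes are therefore uncertain, and the pseudogene counts do not show by how much. Genes with an overlapping neighbour on the other strand cannot be told apart from it there: ANKRD37 shares 909 exon bases with UFSP2, PFKM shares 628 with SENP1 and CA9 shares 643 with ARHGEF39.

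The other genes of the pathway were taken from lists written for the purpose. Of 32 other HIF targets, 27 were tested. With TNF alone 8 rose and 1 fell (beside 5.81% and 4.20% of all tested genes), and with TNF on top of Senexin B 10 rose and 3 fell (beside 4.27% and 1.68%). With TNF alone, PDGFB, a growth factor chain, rose by 1.85 ± 0.07 on the log2 scale and EDN1, the endothelin-1 precursor, by 2.39 ± 0.31. STC2, a secreted glycoprotein, rose by 0.86 ± 0.05. With TNF on top of Senexin B these 3 rose as well, PDGFB by 1.75 ± 0.06, EDN1 by 2.44 ± 0.25 and STC2 by 0.44 ± 0.05. With Senexin B alone 3 of the 27 rose and 1 fell (beside 1.53% and 1.51% of all tested genes), and in TNF-treated cells 4 rose and 2 fell (beside 2.90% and 2.55%). STC2 rose with Senexin B alone by 0.43 ± 0.05 (adjusted p = 3.04e-09, edgeR) and had a log2 fold change of 0.01 ± 0.05 in TNF-treated cells (adjusted p = 0.921, edgeR). PDGFB rose in both, by 0.33 ± 0.08 and 0.23 ± 0.05. It was lost without control replicate 1 or 3 in the first (adjusted p up to 0.0645, edgeR) and without TNF plus Senexin B replicate 1 in the second (adjusted p = 0.0519, edgeR). BHLHE40, a transcriptional repressor, rose in TNF-treated cells by 0.30 ± 0.07, a call lost without TNF plus Senexin B replicate 2 (adjusted p = 0.0659, edgeR). DDIT4, an inhibitor of mTORC1 signalling, rose in both, by 0.35 ± 0.09 and 0.44 ± 0.09, and WSB1, a SOCS-box protein, fell in both, with log2 fold changes of -0.40 ± 0.07 and -0.38 ± 0.07. The DDIT4 call with Senexin B alone did not hold when Senexin B replicate 2 (adjusted p = 0.185, edgeR), control replicate 1 (0.0839) or control replicate 3 (0.0686) was left out.

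Of 13 other genes of the HIF machinery, 12 were tested, and none was called with TNF alone or with Senexin B in TNF-treated cells (beside 10.0% and 5.45% of all tested genes). At an unadjusted p under 0.05 there were 2 and 1 (edgeR), beside 2968 and 2477 of all 13084 tested genes. CREBBP, a histone acetyltransferase that HIF recruits, fell with Senexin B alone, with a log2 fold change of -0.35 ± 0.06 (adjusted p = 0.000349, edgeR). For TNF on top of Senexin B, CREBBP rose by 0.23 ± 0.06 and CITED2, which competes with HIF for that acetyltransferase, had a log2 fold change of -0.32 ± 0.09 (adjusted p = 0.0202 and 0.0214, edgeR). The CREBBP increase was lost without TNF replicate 1, TNF plus Senexin B replicate 1, or Senexin B replicate 1 or 3, and with GC-corrected offsets, with adjusted p up to 0.155 (edgeR). The CITED2 call was lost without replicate 2 or 3 of TNF plus Senexin B or of Senexin B, with adjusted p up to 0.166 (edgeR), and in DESeq2 (adjusted p = 0.198). Of 30 other genes of glucose metabolism, 19 were tested. With TNF alone 2 were called (10.5%, beside 10.0% of all tested genes), 1 higher and 1 lower (beside 5.81% and 4.20%). SLC16A1, another lactate transporter, rose by 0.18 ± 0.04, and TKT, a pentose phosphate enzyme, had a log2 fold change of -0.12 ± 0.04. TKT was lost without TNF replicate 1, control replicate 2 or control replicate 3 (adjusted p = 0.243, 0.0847 and 0.264, edgeR), and in 8 of 20 alternatives in all, DESeq2 among them. With GC-corrected offsets its log2 fold change was -0.06 (adjusted p = 0.353, edgeR). None of the 19 was called with Senexin B alone, with Senexin B in TNF-treated cells or with TNF on top of Senexin B (edgeR). Of all tested genes, 3.04%, 5.45% and 5.95% were called there. At an unadjusted p under 0.05 there were 2, 1 and 2 of the 19, beside 1863, 2477 and 1950 of all 13084 (edgeR).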

How the data were processed

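Polyadenylated RNA libraries of HCT116 cells, 4 groups of 3 biological replicates, were made with a kit that, per the labels' protocols, is one that does not mark strand. In the deposited table are raw read counts per gene symbol and library. STAR 2.4, SAMtools 1.2, Subread 1.4.6 with featureCounts, and the build GRCh38 (hg38) are named per the submitters' processing notes. The annotation release, strand setting and treatment of multiply mapped reads are not given in the sources used here.

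Columns were matched to samples by the sample number in each description. Counts were tested in edgeR 4.0.16 (R 4.3.3): filterByExpr by group, TMM factors, robust quasi-likelihood F-tests, 1 fit over all 12 libraries, Benjamini-Hochberg adjustment over 13084 genes, calls at an adjusted p under 0.05. Errors are Wald standard errors scaled by the quasi-dispersion, and intervals are at 95%. The code was tested on simulated data. CPM uses TMM-scaled library sizes. CPM per kb divides by the longest transcript of best APPRIS rank in GENCODE 29. Alternatives were no filter, RLE factors, DESeq2 1.42.0, each library left out, control replicate 1 and TNF replicate 1 left out together, a replicate block, GC-corrected offsets, block and offsets together, and the 2 groups alone. At this depth a level of 1 CPM is about 6 to 9 counts, and p-values measure the spread between these cultures only.

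Members and lists were chosen with earlier results of these data known. Values by library (a range for KDM3A in control libraries) are given for genes called in at least 1 of 5 comparisons and for HIF1A, EPAS1, ADM, VEGFA, ANGPTL4, SLC2A1, GAPDH and PDK1; from other lists, up to 4 called genes with the smallest p, of which 1 is not reported here. EGLN1 and PFKP are given in detail outside that rule, after their values were seen. Replicate numbers were not treated as pairs, since same-numbered libraries of different groups did not deviate together throughout.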

Additional observations from a re-analysis of the deposited data

Results flagged for a closer look

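STC2, a secreted glycoprotein among the other HIF targets, is given because the TNF effect on it differed between cells with and without Senexin B by a test of the difference itself. It had a mean of 198.9 ± 3.39 CPM in TNF plus Senexin B libraries and 147.1 ± 3.67 CPM in Senexin B libraries (SD, n = 3 each), a log2 fold change of 0.44 ± 0.05. Without the inhibitor it had 196.9 ± 8.14 CPM in TNF libraries and 108.9 ± 5.70 CPM in control libraries (SD, n = 3 each), a log2 fold change of 0.86 ± 0.05. The interaction was -0.42 ± 0.07 on the log2 scale (adjusted p = 0.000375, edgeR), and it stayed past the threshold in all 19 alternatives that give it, from -0.47 to -0.38. Both groups with TNF reached nearly the same level, and the groups without TNF differed. With each library left out in turn, or control replicate 1 and TNF replicate 1 together, the adjusted p was at most 0.0145 (edgeR). No separate test for outlying libraries was made.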

How the results depend on the processing

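Over the named genes and the counts of calls, no direction of a called value was reversed under any alternative. VHL, ADM and SLC2A1 with TNF in both settings, SLC2A3 with TNF alone, and VEGFA and KDM3A with Senexin B in TNF-treated cells were called under all 20 alternatives. DESeq2 called 799 genes in TNF against control, 403 in TNF plus Senexin B against TNF and 485 with TNF on top of Senexin B, against 1309, 713 and 779 in edgeR. It called 3 of the 40 genes for the last of these, against 5. Without a filter 10 genes had an interaction, against 6. With GC-corrected offsets 5 of the 40 genes were called in Senexin B against control, against 3, with EGLN1 and SLC16A3 added. With one library left out at a time, genes called ranged from 236 (without Senexin B replicate 3) to 589 in Senexin B against control, from 451 (without TNF plus Senexin B replicate 3) to 815 in TNF plus Senexin B against TNF and from 2 to 9 for the interaction. Members called ranged from 0 to 5 in Senexin B against control (0 without Senexin B replicate 1, 5 without TNF replicate 1) and from 3 to 6 with TNF on top of Senexin B (3 without Senexin B replicate 2 or 3, or TNF plus Senexin B replicate 3). The causes were not tested.

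The same-numbered libraries had correlated deviations of 0.143, -0.017 and 0.238 in TNF against control, and 8 of 12 libraries correlated best with their own number, a hint from the data only. With the replicate block 8, 4, 3 and 5 of the 40 genes were called for TNF alone, Senexin B alone, Senexin B in TNF-treated cells and TNF on top of Senexin B, and 0 for the interaction. For these pairwise comparisons, in the same order, 1470, 479, 871 and 827 of all tested genes were called with the block. Without it 1309, 398, 713 and 779 were called. The block together with GC-corrected offsets gave 6 of the 40 genes and 700 of all genes in Senexin B against control, and 4 of the 40 in TNF plus Senexin B against TNF. CA9 had too few counts to be tested, and ANGPTL4, EGLN3 and ANKRD37 have few counts and wide intervals. RNA levels say nothing of HIF alpha protein, oxygen or glycolytic flux, and each treatment was sampled at 1 time and dose.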
